A study of Caenorhabditis elegans with 16 samples.

Results

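The mir-35 family of Caenorhabditis elegans was followed through its 8 guide strands in small RNA libraries of embryos. The members were found by name (cel-mir-35-3p, cel-mir-36-3p, cel-mir-37-3p, cel-mir-38-3p, cel-mir-39-3p, cel-mir-40-3p, cel-mir-41-3p and cel-mir-42-3p, written miR-35-3p to miR-42-3p from here on) in the list of miRNA strands of each library, where they are 8 of 366 strands listed in any library, and each was examined alone and as a share of the family. All 16 libraries, 2 from each of 8 strains, hold all 8 members. A microRNA hairpin yields a guide strand, which an Argonaute protein keeps and uses to find messenger RNAs, and a passenger strand from the other arm, most of which is lost. Members of a family share the seed, the short stretch near the 5′ end that pairs with targets. The mir-35 family is among the most abundant of the early worm embryo, and embryos that lack it die. Because the strains of this series were made to lose or replace members of a different family, miR-51 to miR-56, the comparison asks whether the amount and the makeup of the mir-35 family differ when that other family does.

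The embryos carried the following alleles. miR-51null (strain MLC1800; nDf67, n4100 IV; nDf58 X) lacks the miR-51 family, and the genotype of its stock includes the extrachromosomal array lucEx1057, whose fosmid holds the mir-54 cluster. Whether the sequenced embryos carried the array is not given in the sources used here. One marker of that array is gfp under the mir-35 promoter, so the array adds mir-35 promoter sequence to that of the endogenous locus. miR-54 (MLC2393; n4100, nDf67 IV; luc180 X), described as slow growing, keeps miR-54. miR-54+55 (MLC2394; n4100, nDf67 IV; luc177 X) keeps miR-54 and miR-55, and miR-54C (MLC2290; nDf67, n4100 IV) keeps the whole mir-54 cluster. In miR-52to51 (MLC1997; luc143), miR52to53 (MLC1917; luc140) and miR52to57seed (MLC1918; luc141), all with nDf67 and nDf58, the mir-52 hairpin was exchanged for that of mir-51, of mir-53, or of mir-57 with an altered seed. In miR52to57seed the altered seed is that of miR-51, which the paper reports was enough for full development, viability and length included. All 7 mutant strains share nDf67, and N2 is the wild type. Each library came from 50 whole embryos grown at 20 °C to the comma stage, when the embryo begins to bend and elongate, and the replicates are independent samples of the same strain. Each strain was given its own adapter barcode, so barcode and genotype cannot be told apart.

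Molecules were counted by unique molecular identifiers (UMIs), random tags that let copies of a molecule made by PCR be counted once. Libraries held between 18481 UMIs on miRNAs, in miR52to53 replicate 1, and 844718, in N2 replicate 1. The 8 guides themselves had between 5882 and 315496 UMIs in a library. No UMI of a member was shared with another strand. Strands of mir-51 to mir-56 made up 1.54% and 1.09% of miRNA UMIs in miR-51null and 0.161% and 0.178% in miR52to57seed, against 27.8% and 31.8% in N2. These percentages leave out mir-57, which in miR52to57seed carries the miR-51 seed at the mir-52 locus. Strands of mir-57 were few there too: 48697 of 49117 and 81934 of 82518 miRNA UMIs lay outside mir-51 to mir-57. The sum of all miRNA UMIs in that strain thus holds little of the exchanged miRNA, and the reason was not tested. Because the miR-51 family changes by design, its strands and those of mir-57 were left out of the denominators of the levels below, except where all miRNA UMIs are named. Levels are therefore relative to other miRNAs, and amounts per embryo were not analysed here. Markers of embryonic tissues were present in every library: miR-1-3p of muscle was at 5713 to 19134 UMIs per 1000000 normalised UMIs in the mutant libraries, against 17995 and 19493 in N2, and miR-124-3p of sensory neurons at 2848 to 7304, against 6967 and 5012. miR-228-3p of glia was at 79.2 to 373, against 315 and 273, and fell in miR-51null (log2 change -1.40 ± 0.40 SE; edgeR, adjusted p = 0.031). That call rests on 14 and 7 UMIs in the miR-51null libraries, against 188 and 40 in N2. The part of miR-228-3p in the results for that strain was not tested. In whole embryos, fewer cells that make a strand and less of it per cell cannot be told apart.

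The members lie at 2 sites on the plus strand of chromosome II (WBcel235, the build that the submitters name). Hairpins mir-35 to mir-41 stand head to tail within 797 bases, from position 11537608 to 11538404, with gaps of 2 to 61 bases between neighbours. This cluster lies within an intron of the protein-coding gene Y62F5A.9, which is on the opposite strand, and it overlaps exons of the short noncoding genes Y62F5A.14, Y62F5A.15 and Y62F5A.16 on its own strand. The hairpin of mir-42, from 11889811 to 11889905, is 351406 bases further on. It opens a cluster of 308 bases with mir-43 and mir-44, which belong to other families, and the noncoding gene ZK930.12 runs antisense across mir-42 and mir-43. Every one of the 8 guides is annotated as the 3p arm of its hairpin and as 22 bases long.

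The 8 guides made up about as many UMIs as all the remaining miRNAs outside mir-51 to mir-57 together. Their sum was 51.4% and 52.6% of those UMIs in miR-51null, 45.1% and 48.8% in miR-54, 54.0% and 55.8% in miR-54+55, and 45.9% and 50.2% in miR-54C. It was 50.2% and 42.9% in miR-52to51, 42.4% and 49.4% in miR52to53, and 53.0% and 53.8% in miR52to57seed, against 52.2% and 52.3% in N2. The lowest and the highest library thus differed by 1.31-fold, while the replicates of a strain differed by up to 1.17-fold. Both libraries of miR-54+55 and of miR52to57seed lay above both N2 libraries, and both libraries of miR-54, miR-54C, miR-52to51 and miR52to53 lay below them, although as a percentage of all miRNA UMIs, the edited family included, those of miR-54 and miR-54C lay above N2 and those of miR52to53 on either side of it. The strain mean over the N2 mean ran from 0.880 ± 0.094 in miR52to53 to 1.05 ± 0.02 in miR-54+55 (SD propagated from n = 2 each). An exact permutation test of 2 libraries against 2 cannot go below p = 0.333, the two-sided value that these 6 strains each gave, and miR-51null gave p = 1. Over all 8 strains, the closeness of replicates did not pass an exact one-sided test over all 2027025 ways of pairing 16 libraries (p = 0.118). Taken as a percentage of all miRNA UMIs, the edited family included, the totals did pass the same exact test (p = 0.0018). The genotypes change that denominator by design, so this p-value cannot separate a change of the mir-35 family from one of the edited family. Without miR-52to51 replicate 1 the same exact test gave p = 0.0495, and over the libraries left out in turn it ran from 0.0495 to 0.219. Counting error moved a total by at most 0.823 percentage points (95% Wilson interval), which is less than most gaps between replicates.

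**Figure D1:**
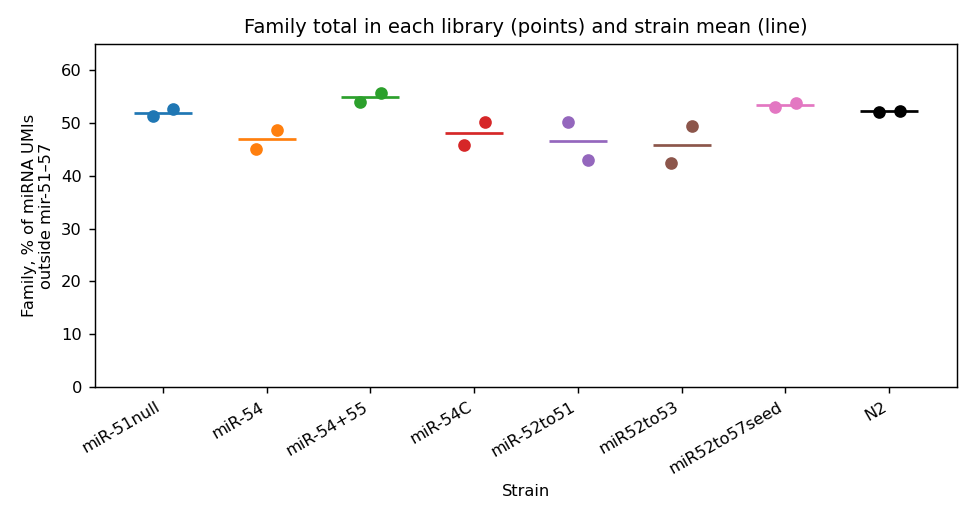
Sum of the 8 mir-35 family guides in each library, as a percentage of miRNA UMIs outside mir-51 to mir-57 (vertical axis), by strain. Points are the 2 libraries of a strain and lines their mean; the libraries lie between 42.4% and 55.8%, with both N2 libraries at 52.2% to 52.3%.

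Strands that mark developmental time were read beside these totals. A list of 5 strands of the heterochronic pathway, lin-4-5p, let-7-5p, miR-48-5p, miR-84-5p and miR-241-5p, which rise late in embryos or in larvae and time stage transitions, was summed in each library. The sum was 2004 and 1549 UMIs per 1000000 in miR-51null, 4369 and 876 in miR-54, 1630 and 521 in miR-54+55, and 606 and 1108 in miR-54C. It was 838 and 2660 in miR-52to51, 4284 and 1813 in miR52to53, and 373 and 229 in miR52to57seed, against 825 and 711 in N2. The 3 libraries with the highest sums, miR-54 replicate 1, miR52to53 replicate 1 and miR-52to51 replicate 2, were the 3 with the lowest family totals. Other libraries departed from this: miR-54C replicate 1, with a family total of 45.9%, had a sum of 606, below both N2 libraries. miR-51null replicate 1 had a sum of 2004 at 51.4%. miR-48-5p alone gave 2532 in miR-54 replicate 1 and 2307 in miR52to53 replicate 1. The sums rest on 14 to 899 UMIs in a library. Of the 5 strands, lin-4-5p rose in miR-54 (log2 change 2.41 ± 0.68 SE, edgeR quasi-likelihood test, adjusted p = 0.030), where 11.7% of all strands tested were called, and the other 4 did not pass in any strain. lin-4-5p also differed over all strains together (edgeR, adjusted p = 0.018), where 9.88% of all strands were called. Both percentages include strands of the edited family, and lin-4-5p had 128 and 29 UMIs in miR-54, against 62 and 6 in N2. The part of developmental timing in the family totals was not tested.

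Among the strands outside mir-51 to mir-57, miR-35-3p ranked first in 14 libraries and second in 2, both of miR52to53, where miR-58a-3p, of the bantam family, was above it. miR-58a-3p had the most UMIs of any strand outside both families in all 16 libraries. All 8 members stood among the top 10 of these strands in 11 libraries and 7 of them did in the other 5. In N2, miR-35-3p was 21.3 ± 1.4% of the family (SD, n = 2 here and for each of the following), followed by miR-36-3p with 14.9 ± 0.9%, miR-37-3p with 13.8 ± 0.9%, miR-40-3p with 13.5 ± 0.1% and miR-39-3p with 12.6 ± 1.0%. Then came miR-38-3p with 10.8 ± 0.3%, miR-42-3p with 8.14 ± 0.11% and miR-41-3p with 5.02 ± 0.22%. From miR-36-3p to miR-39-3p the N2 values of neighbours lay within about 1 SD of each other, whereas miR-35-3p, miR-38-3p, miR-42-3p and miR-41-3p stood apart from their neighbours.

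Every library kept the outline of this order. miR-35-3p was the highest member in all 16, and miR-41-3p was the lowest in 12, miR-42-3p in 3 and miR-38-3p in 1. The highest member exceeded the lowest by 2.66-fold to 6.57-fold, with a median of 3.53-fold. Of the 28 pairs of members, 18 had the same order in all 16 libraries. The most constant ratio was that of the neighbours miR-36-3p and miR-37-3p, which ran from 0.968 to 1.42 with a median of 1.08, and miR-36-3p was the higher in 15 libraries. The ratio of miR-39-3p to miR-40-3p, also adjacent hairpins, ran from 0.875 to 1.34, and neither was the higher throughout, with miR-39-3p ahead in 7 libraries. The most variable ratio was that of miR-35-3p to miR-41-3p, the first and last hairpins of the cluster, which ran from 1.53, in miR52to53, to 6.57, in miR-51null. The 7 hairpins of the mir-35 to mir-41 cluster lie on 1 strand of DNA, and their guides differed in UMI count. The cluster held between 91.6% and 93.9% of the family's UMIs. UMIs correct for PCR copies only, and whether strands of different sequence are captured alike was not tested.

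Each member's level was tested against N2 in a single fit of 162 strands, those that reached 10 UMIs in 2 or more libraries, scaled by the trimmed mean of M-values over strands outside mir-51 to mir-57, with p-values adjusted over all 162 strands. No member was called at an adjusted p under 0.05 in any of the 7 strains, that is in 0 of 56 tests. Of these tests, 7 had an unadjusted p under 0.05. DESeq2 called 3 of the 56, and the share of all strands that it called is not given here. The edgeR fit did call strands in each comparison, most numerous in miR-51null, with 12.3% of all strands tested. It called 11.7% in miR-54, 4.94% in miR-54+55, 3.7% in miR-54C, 11.7% in miR-52to51, 8.64% in miR52to53 and 8.02% in miR52to57seed, strands of the edited family included. The members' fold changes lay between 0.559 and 1.68, and 48 of the 56 were within 1.5-fold of N2. The 95% intervals were wide: 34 of 56 lay wholly within 2-fold in either direction, and all 56 within 4-fold. The median log2 change of the members was 0.03 in miR-51null, -0.33 in miR-54, 0.14 in miR-54+55, -0.22 in miR-54C, -0.43 in miR-52to51, -0.45 in miR52to53 and 0.06 in miR52to57seed. Over all strands tested outside mir-51 to mir-57 the medians were at most 0.05 from 0. The scale was set on these same strands, so that closeness to 0 is not a separate baseline. With the plain sum outside mir-51 to mir-57 as scale, their medians were 0.16 in miR-52to51 and 0.19 in miR-54. The members' medians on that scale were -0.26 and -0.17. Scaled to all miRNA UMIs, the members' medians were above 0 in miR-54 (0.25) and miR-54C (0.15), where that scale also moved the strands outside mir-51 to mir-57, by medians of 0.59 and 0.33.

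2 steps within the mir-54 cluster were tested in the same fit, and the percentages of all strands again include the edited family. Between miR-54+55 and miR-54C, 0 of 8 members were called, with 1 at an unadjusted p under 0.05, where 1.23% of all strands were called. Between miR-54 and miR-54+55, 0 of 8 were called, with 3 at an unadjusted p under 0.05, against the same 1.23% of all strands. In the first step 7 of 8 estimates were above 0, with a median of 0.41 over the 8, and 7 of the 8 kept their sign under all 27 alternatives. All 8 estimates were below 0 in the second step, with a median of -0.49, and 5 of them stayed below 0 under all 27 alternatives. Both steps share the miR-54+55 libraries, and scaled to all miRNA UMIs the estimates of miR-36-3p and miR-38-3p in the second step were above 0 (0.054 and 0.025). A test for a difference in any strain called 0 of 8 members, with 2 at an unadjusted p under 0.05, and 9.88% of all strands. DESeq2 called miR-39-3p, miR-40-3p and miR-42-3p in that test. The 9.88% is that of edgeR, and the share of all strands that DESeq2 called is not given here. Whether its calls are particular to the members was not tested.

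miR-42-3p, the member encoded apart from the others, came closest to the threshold. Levels are given here in UMIs per 1000 normalised UMIs. It had 44.2 and 43.8 in miR-51null, 31.0 and 36.3 in miR-54, 44.6 and 44.1 in miR-54+55, and 36.6 and 33.4 in miR-54C. It had 29.7 and 27.3 in miR-52to51, 23.8 and 32.7 in miR52to53, and 45.4 and 42.9 in miR52to57seed, against 43.5 and 44.7 in N2. The libraries of miR-54, miR-54C, miR-52to51 and miR52to53 thus lay below both N2 libraries and the others close to them. The log2 change was -0.63 ± 0.20 (SE) in miR-52to51, with an adjusted p of 0.052, and -0.64 ± 0.20 in miR52to53, with an adjusted p of 0.064 (edgeR). Its any-strain test had an adjusted p of 0.090. These values sit at the edge of the test. Over the 27 alternatives, the adjusted p in miR-52to51 ran from 0.0015 to 0.258 and passed in 9, among them the fits without miR-51null replicate 1 (0.047), miR-51null replicate 2 (0.045), miR52to53 replicate 1 (0.020) and miR52to53 replicate 2 (0.014). In miR52to53 it ran from 0.0013 to 0.381 and passed in 4, among them the fit without miR52to53 replicate 2 (0.0075). The estimate was below 0 in all of them.

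miR-38-3p had the lowest fold change of any member. It had 46.3 and 38.7 UMIs per 1000 in miR-51null, 34.0 and 40.2 in miR-54, 48.3 and 41.6 in miR-54+55, and 48.0 and 48.7 in miR-54C. It had 33.6 and 31.7 in miR-52to51, 19.0 and 59.3 in miR52to53, and 34.2 and 50.7 in miR52to57seed, against 58.3 and 58.6 in N2. Of the 14 mutant libraries 13 were below both N2 libraries, the exception being miR52to53 replicate 2, and the replicates of miR52to53 stood more than 3-fold apart. The log2 change was below 0 in all 7 strains and ran from -0.84 ± 0.36 (SE) in miR-52to51 to -0.27 ± 0.36 in miR-54C. Scaled to all miRNA UMIs, it was below 0 in 5 of them (not in miR-51null and miR-54C). That scale raised the median strand outside mir-51 to mir-57 by 0.52 in miR-51null and 0.33 in miR-54C. The adjusted p in miR-52to51 was 0.169 (edgeR), and it passed in 4 of 27 alternatives, among them the fits without miR52to53 replicate 1 (0.012) or replicate 2 (0.014). All 7 comparisons share the 2 N2 libraries, so that a common direction is not 7 separate observations.

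miR-39-3p stood highest in miR-54+55, with 96.8 and 133 UMIs per 1000. It had 85.8 and 82.2 in miR-51null, 62.6 and 69.8 in miR-54, and 67.2 and 70.9 in miR-54C. It had 80.3 and 55.3 in miR-52to51, 50.8 and 75.6 in miR52to53, and 85.7 and 80.1 in miR52to57seed, against 63.0 and 73.5 in N2. The log2 change in miR-54+55 was 0.75 ± 0.25 (SE; edgeR, adjusted p = 0.130), with a 95% interval of 1.16-fold to 2.44-fold. The estimate was above 0 under all 27 alternatives, with adjusted p-values of 0.00062 to 0.712. The adjacent miR-40-3p was also high in that strain, at 93.1 and 111 UMIs per 1000 against 71.1 and 75.5 in N2, with a log2 change of 0.48 ± 0.22 (edgeR, adjusted p = 0.430).

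The other 4 members varied as follows. miR-35-3p ranged from 62.7 to 145 UMIs per 1000 over the mutant libraries, with a median of 111, against 107 and 124 in N2. miR-36-3p ranged from 42.4 to 88.4 with a median of 72.9, against 82.3 and 79.1 in N2. miR-37-3p ranged from 39.2 to 77.0 with a median of 59.6, against 76.3 and 72.8 in N2. Most mutant libraries lay below both N2 libraries, 13 of 14 for miR-36-3p and 11 of 14 for miR-37-3p. This direction depends on the scale. Scaled to all miRNA UMIs, the log2 change of miR-36-3p was above 0 in 5 of 7 strains, by up to 0.49 in miR52to57seed. That of miR-37-3p was above 0 in 4 of 7. The same scale raised the median strand outside mir-51 to mir-57 in all 7 strains, by 0.15 in miR-52to51 to 0.59 in miR-54. In miR52to57seed it raised that median by 0.43, so the reversal is not specific to these members. miR-41-3p had the widest range in proportion to its level, from 16.3 in miR-54 replicate 1 to 58.6 in miR52to53 replicate 2 with a median of 30.8, against 27.4 and 27.0 in N2.

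Dividing by the family's own sum removes any change that all members share. Shares add up to the whole family, so a higher share of some members lowers those of others. The directions of the 8 shares are therefore not separate observations. In a second fit with the sum of the 8 guides as library size, 0 of 56 shares were called against N2 (edgeR, adjusted p under 0.05), with 5 at an unadjusted p under 0.05. On this scale 11.1% of all strands, the edited family included as before, were called in miR-51null, 10.5% in miR-54, 5.56% in miR-54+55 and 3.7% in miR-54C. The figures were 15.4% in miR-52to51, 10.5% in miR52to53 and 8.02% in miR52to57seed. The any-strain test of shares called 0 of 8 members, with 0 at an unadjusted p under 0.05, and 13% of all strands. Fold changes of the shares lay between 0.666 and 1.88, and 54 of 56 were within 1.5-fold. The 95% intervals of 50 of 56 lay wholly within 2-fold.

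**Figure D2:**
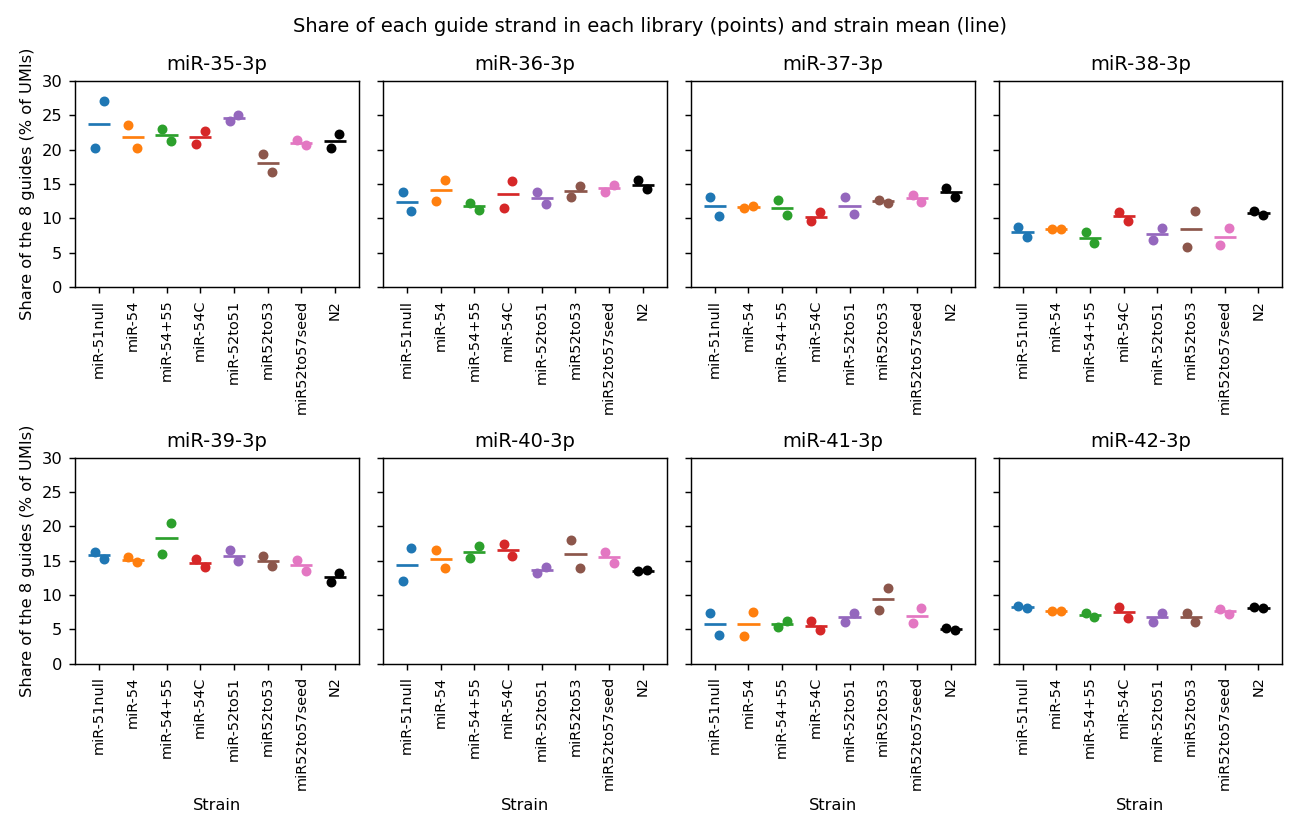
Share of each guide in the sum of the 8 guides (vertical axis, percent of UMIs) in each library, by strain; points are the 2 libraries of a strain and lines their mean. miR-35-3p is the highest in every library, at 16.8% to 27.1%, and miR-39-3p lies above both N2 values, 11.9% and 13.3%, in all 14 mutant libraries.

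The share of miR-39-3p was 16.2% and 15.3% in miR-51null, 15.6% and 14.8% in miR-54, 16% and 20.5% in miR-54+55, and 15.3% and 14.0% in miR-54C. It was 16.5% and 14.9% in miR-52to51, 15.7% and 14.1% in miR52to53, and 15.2% and 13.5% in miR52to57seed, against 11.9% and 13.3% in N2. Every mutant library lay above both N2 libraries, which are the same for all of them. The nearest values were close, 13.5% in miR52to57seed and 13.3% in N2. The any-strain test of this share gave an adjusted p of 0.404 (edgeR). The largest change was in miR-54+55, with a log2 of 0.54 ± 0.17 (SE; edgeR, adjusted p = 0.108), and without miR-54+55 replicate 1 its adjusted p was 0.047, within a range of 0.036 to 0.710 over 21 alternatives. In N2 replicate 1 miR-39-3p had 1.43 reads per UMI, against 1.16 to 1.27 for the members other than it and miR-41-3p, and counted in reads its N2 shares were 13.7% and 13.9%. The estimate was above 0 in all 7 strains in reads too, with a median log2 of 0.22 in place of 0.27. The part of UMI counting in this difference was not tested.

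The share of miR-38-3p was 8.75% and 7.21% in miR-51null, 8.43% and 8.51% in miR-54, 7.96% and 6.41% in miR-54+55, and 10.9% and 9.65% in miR-54C. It was 6.91% and 8.57% in miR-52to51, 5.88% and 11.1% in miR52to53, and 6.05% and 8.55% in miR52to57seed, against 11.0% and 10.6% in N2. In 5 of 7 strains both libraries lay below both of N2, while those of miR-54C and miR52to53 overlapped with them. The log2 change was lowest in miR-54+55, at -0.59 ± 0.26 (SE; edgeR, adjusted p = 0.324). In miR52to53 it was -0.34 ± 0.26 (edgeR, adjusted p = 0.506), and the replicates decided it, with -0.88 and an adjusted p of 0.044 without replicate 2 and 0.040 and an adjusted p of 0.986 without replicate 1.

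The share of miR-41-3p was the one that varied most in proportion to its size. It was 7.40% and 4.12% in miR-51null, 4.05% and 7.58% in miR-54, 5.27% and 6.22% in miR-54+55, and 6.24% and 4.84% in miR-54C. It was 6.10% and 7.34% in miR-52to51, 7.82% and 11.0% in miR52to53, and 5.87% and 8.11% in miR52to57seed, against 5.18% and 4.86% in N2. Replicates of miR-51null and of miR-54 lay on either side of N2, and both libraries of miR52to53 lay above every N2 value and above those of miR-51null and miR-54. The log2 change in miR52to53 was 0.91 ± 0.32 (SE), the largest of any share, with a 95% interval of 1.17-fold to 3.0-fold and an adjusted p of 0.081 (edgeR). Over 21 alternatives that p ran from 0.013 to 0.366, and it passed without miR-54 replicate 1 (0.037) and without miR-54 replicate 2 (0.038).

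**Figure D3:**
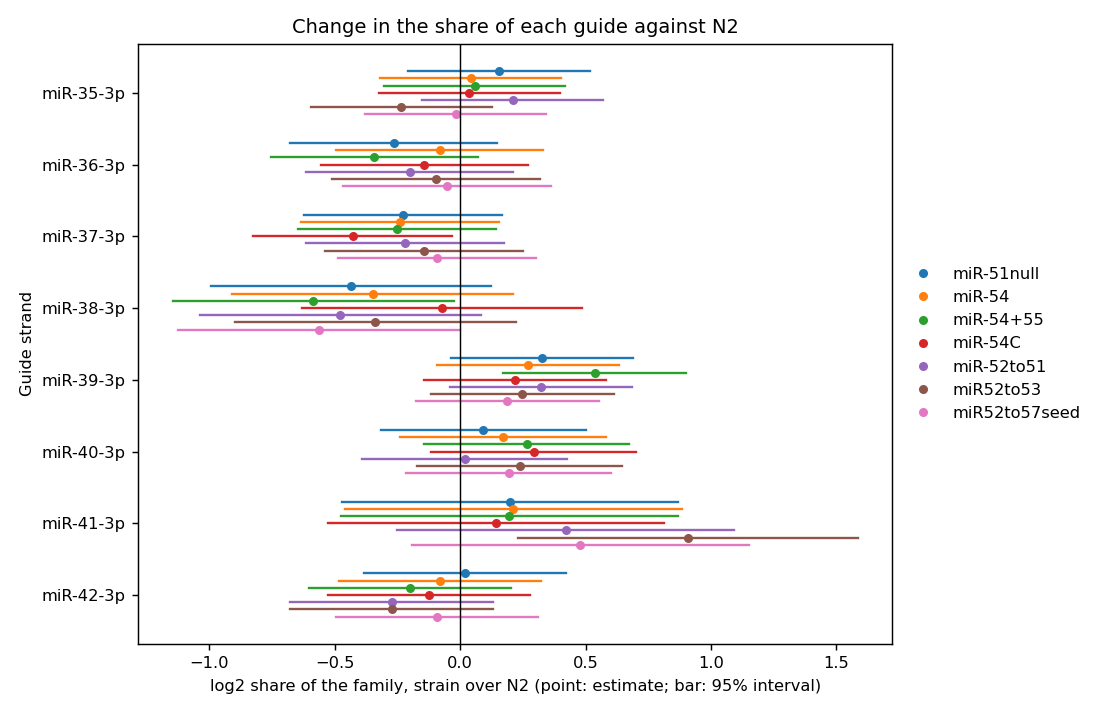
Log2 change in the share of each guide within the family, strain over N2 (horizontal axis; points are edgeR estimates, bars 95% intervals), for 7 strains against the same 2 N2 libraries. Most bars cross 0; no share passed at an adjusted p under 0.05, and the largest estimate is 0.91 for miR-41-3p in miR52to53.

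The shares of the remaining members moved less. miR-42-3p was at 6.10% to 8.36% over the mutant libraries, against 8.22% and 8.06% in N2, and had the smallest SD between replicates of any member, 0.667 points pooled over the 8 strains. miR-35-3p had 18.1 ± 1.8% in miR52to53 and 24.6 ± 0.5% in miR-52to51 (SD, n = 2 each), the lowest and the highest strain means, against 21.3 ± 1.4% in N2. miR-36-3p and miR-37-3p had estimates below 0 and miR-40-3p above 0 in all 7 strains, which share the same 2 N2 libraries, and none was called. Both libraries of a strain lay on one side of both N2 libraries for 3 of 8 shares in miR-51null, 5 in miR-54, 7 in miR-54+55 and 3 in miR-54C. The count was 7 in miR-52to51, 6 in miR52to53 and 5 in miR52to57seed. Counted over all 162 strands relative to the same sum, the edited family included, 50.6% were so separated in miR-51null, 62.3% in miR-54 and 53.1% in miR-54+55. The figure was 53.7% in miR-54C and in miR-52to51, 56.2% in miR52to53 and 58.6% in miR52to57seed. Counting error of a share was at most 1.01 points over the 128 values and 0.286 points in N2 (95% Wilson interval), and covers counting only.

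Strands from the 5p arm of the same hairpins were rare in every strain. Together they made up 0.248% to 0.692% of the UMIs of both arms over the 16 libraries, with a median of 0.474%, against 0.457% and 0.453% in N2 alone. The share differed between hairpins: its median over libraries was 0.177% for mir-35, 0.178% for mir-36, 0.220% for mir-40 and 0.283% for mir-39. It was 0.396% for mir-37 and 0.567% for mir-38, and highest for mir-41, at 0.960%, and for mir-42, at 2.23%. The hairpins with the least guide strand thus had the largest share of the other arm. The counts are small, 1 to 441 UMIs per strand and library with 22 of 128 under 10. No 5p strand of mir-35 to mir-42 was called in any strain against N2, with 0 to 1 of 8 at an unadjusted p under 0.05 in each (edgeR), and their log2 changes had medians of -0.33 to 0.15.

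**Figure D4:**
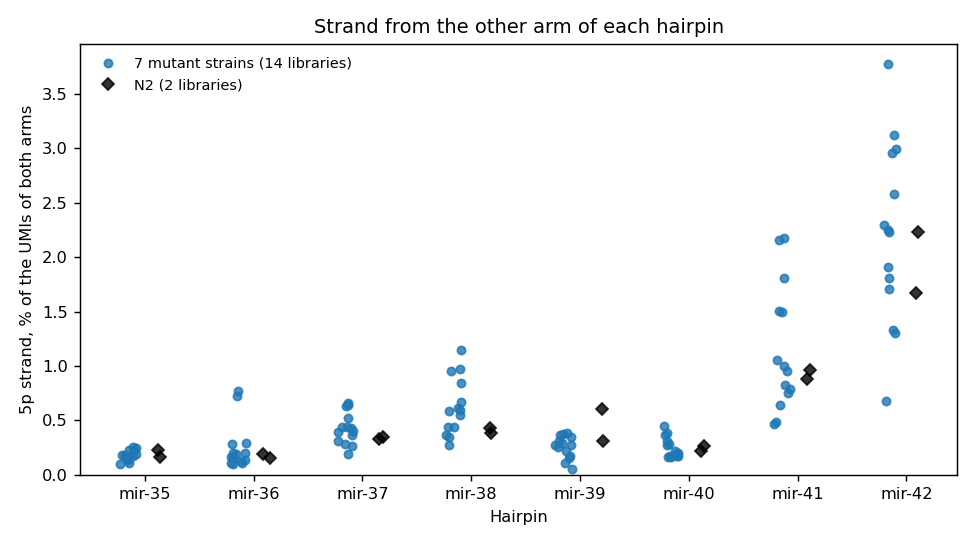
5p strand of each hairpin as a percentage of the UMIs of both arms (vertical axis), by hairpin; circles are the 14 libraries of the 7 mutant strains and diamonds the 2 N2 libraries. mir-42 and mir-41 have the highest medians, 2.23% and 0.960%, and the other hairpins reach at most 1.14% in a library.

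The hairpins mir-43 and mir-44 share the cluster of mir-42 and gave strands of both arms. miR-43-5p fell in miR-51null (log2 change -1.20 ± 0.37 SE; edgeR, adjusted p = 0.044) and in miR-52to51 (-1.43 ± 0.38; edgeR, adjusted p = 0.015). Its level was below both N2 libraries in all 14 mutant libraries, at 154 to 457 UMIs per 1000000, against 624 and 773 in N2. All 14 are set against the same 2 N2 libraries. Other strands lay so in many libraries: miR-44-5p in 13 and miR-1-3p in 12, but miR-43-3p in 4. Its counts were small, 24 and 32.5 UMIs in miR-51null and 7 and 50 in miR-52to51, against 372 and 113 in N2. miR-44-5p fell in miR-54 (-1.14 ± 0.33; edgeR, adjusted p = 0.033), and it was at 165 to 660 UMIs per 1000000 in the mutant libraries, against 621 and 759 in N2. The 3p strands of both hairpins were not called in any strain; UMIs of miR-44-3p were divided with another strand in all 16 libraries and its values are uncertain. Of the 4 strands of mir-43 and mir-44, 1 was called in each of miR-51null, miR-54 and miR-52to51, and none in the other 4 strains. In the strains with a call, in that order, 12.3%, 11.7% and 11.7% of all strands tested were called, strands of the edited family included.

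Likeness to the family total was measured as Pearson's r over the 16 libraries, on log2 UMIs relative to UMIs outside both families, for the 24 strands with at least 100 UMIs in every library. The most alike were miR-45-3p (r = 0.56), miR-44-3p (0.56) and miR-82-3p (0.56). The first pair share their UMIs, each with 0.500 of those counted in full, and so count as a single pattern. At the other end stood miR-86-5p (-0.73), miR-80-3p (-0.68) and miR-67-3p (-0.63). These libraries share strains and a common denominator, and the values only describe them.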

How the data were processed

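Small RNA libraries of comma-stage embryos (50 per library, 2 libraries per strain, all of 1 batch label) were made with barcoded adapters. The authors assigned reads to miRNA strands of WBcel235 and deposited estimated counts per strand without normalization: reads, UMIs divided among strands that share them (the values used), and whole counts of UMIs in full. The aligner is not given in the sources used here. Strands absent from a library's list were taken as 0. The study's spike-in scale was not used.

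UMIs were rounded and the 162 strands that reached 10 UMIs in 2 or more libraries entered 1 fit of all 16 libraries in edgeR 4.0.16 (R 4.3.3), by the quasi-likelihood test with Benjamini-Hochberg adjustment. Library sizes were normalised by the trimmed mean of M-values over strands outside mir-51 to mir-57, or set to the sum of the 8 guides for shares. The biological coefficient of variation was 25.6% for levels and 28.6% for shares. DESeq2 1.42.0 was an alternative. The fit was also run on simulated data, with no outcome given here. That run therefore does not show whether changes as small as those of the members would be detected. Totals were compared by exact tests in scipy 1.17.1. Other alternatives changed the scaling, the filter, reads for UMIs, the replicate block or the libraries. Replicates of a strain differed by more than counting noise, by 8.45 to 39.6 times the degrees of freedom in chi-square. P-values of the fits rest on a spread estimated over all 16 libraries.

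The strands named are the 8 guides, their 5p strands, those of mir-43 and mir-44, 5 timing strands, 3 tissue markers and the 3 strands most like the family total; miR-58a-3p and the 3 least like strands were named after their values were seen. Members and lists were chosen with earlier results of these data known.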

Additional observations from a re-analysis of the deposited data

How the results depend on the processing

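Under other settings most comparisons still called 0 members, with the exceptions below. The share of all strands called under each of these settings is not given here. Whether the members were called more often than other strands under them was therefore not tested. With DESeq2 size factors 1 member was called in each of miR-52to51, miR52to53 and any strain, as with the sum outside both families. The DESeq2 test called 1 in miR-54+55, 1 in miR-52to51, 1 in miR52to53 and 3 in any strain. Fitting only the strains compared called 1 in miR-54+55 and 2 in miR-52to51, no filter called 1 in miR-52to51, and a filter of at least 50 UMIs called 1 there. Scaling by all miRNA UMIs called 4 in miR-51null, 1 in miR-54, 2 in miR-54+55, 4 in miR52to57seed and 4 in any strain. That scale includes the edited family and shifted the median strand outside it by up to 0.59 (log2), where the plain sum outside mir-51 to mir-57 gave up to 0.19 and the main scale up to 0.05. Under it the family total differed between strains (exact test over pairings, p = 0.0018). The ratio to N2 reached 1.20 in miR-54 and 1.12 in miR-54C, where the other settings gave values under 1. The genotypes change that denominator by design, so these values do not separate the mir-35 family from the edited one. For shares, a filter of at least 50 UMIs called 1 in miR-54+55 and no filter called 1 in miR52to53. Leaving out each library in turn gave 0 to 1 members called in miR-54, 0 to 2 in miR-52to51, 0 to 3 in miR52to53 and 0 to 2 in any strain, 0 to 1 shares in miR-54+55 and in miR52to53, and a p of 0.0495 to 0.219 for the family total between strains. The one call in miR-54 came without miR52to53 replicate 1, the 3 in miR52to53 without miR52to53 replicate 2, and the share called in miR52to53 was that of miR-41-3p, which was higher, without either miR-54 library, and that of miR-38-3p, which was lower, without miR52to53 replicate 2. The cause was not tested. The replicate numbers share no stated source, and the correlation of replicate differences between strains ran from -0.448 to 0.637 over 28 pairs. With the replicate block 0 members and 0 shares were called in any comparison, as without it.

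Depth limits miR52to53 most, since its replicate 1 has 5882 family UMIs. Where a library was left out, the remaining one was assumed to vary like those of the other strains.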

Other observations

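The deposited lists split the UMIs of each strand into a class named GM and a class named PM, which together give the total. The names are not explained in the sources used here, so the split is given only as a pattern. The PM class was a small part of every guide, and its size went with the member more than with the strain. Its median over 16 libraries was 9.69% of UMIs for miR-38-3p, 6.10% for miR-41-3p, 6.01% for miR-40-3p and 4.68% for miR-39-3p. It was 3.72% for miR-35-3p, 2.66% for miR-36-3p, 1.95% for miR-37-3p and 1.39% for miR-42-3p. The ranges of miR-38-3p, 7.23% to 11.7%, and of miR-42-3p, 1.11% to 2.08%, did not overlap. Strain means differed by an SD of 1.03 points for miR-38-3p, against 0.788 points between replicates. For miR-39-3p all 14 mutant libraries, at 2.96% to 5.49%, were below both N2 libraries, at 6.33% and 5.67%. No test was made of these shares.

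Reads per UMI also differed between members within a library. Over all members and libraries they ran from 1.04 to 1.85, and in N2 replicate 1 they were highest for miR-41-3p, at 1.45, and miR-39-3p, at 1.43.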
